A study of Mus musculus with 3 samples.

Results

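The cells described here are insulin-rich beta cells of mouse pancreatic islets, taken from mice infused with S961 and compared with those of control mice. The cells were chosen by measured values, namely their hormone, mitochondrial and ferritin UMIs and their gene number. A barcode counted as a beta cell if it held at least 500 detected genes, at most 20% mitochondrial UMIs (unique molecular identifiers, each standing for 1 captured RNA molecule) and Ins1 plus Ins2 at 15% or more of its UMIs. Gcg, Sst and Ppy, the hormone genes of alpha, delta and PP cells, each had to lie under 1%. Barcodes led by the processed pseudogene Ftl1-ps1 (at least 5 UMIs of Ftl1 and Ftl1-ps1, 50% or more of them from the pseudogene) were left out. This gave 1559 cells in the S961 library and 2846 in the control library, 4405 of the 24590 barcodes of the series. The recovered library held 2063 such cells and is given beside them as a level.

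All animals were male C57Bl6/J mice, retired breeders of 7 to 8 months, and the study made 1 droplet-based 10x Genomics 3' library for each of 3 groups. Control mice carried pumps without S961, and S961 mice carried pumps delivering the insulin receptor antagonist S961 at a labelled 20 nM per week for 2 weeks. Recovered mice had their pumps taken out. How many mice gave each library and how long recovery lasted are not stated in the labels. The islets of every group spent a night in culture and were dispersed with TrypLE, so all values come from cultured, enzyme-treated islets. With 1 library a side no test across mice exists and no p-value is given. Intervals are 95% and cover counting error only.

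S961 is a peptide that occupies the insulin receptor without activating it. Mice given it become resistant to insulin and hyperglycaemic, and their beta cells come under a heavy secretory demand. A mature beta cell takes up glucose, turns it into ATP, closes its ATP-sensitive potassium channels and releases insulin from zinc-rich granules, and it folds large amounts of proinsulin in the endoplasmic reticulum (ER). Beta cells under long demand are known to lose part of their mature gene program and to take up stress and cell-cycle-inhibitor genes.

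Iapp, the gene of amylin, which is stored with insulin, was not used to choose the cells. It was at 92052 in control, 88525 in S961 and 85361 in recovered beta cells, as CPM (UMIs of a gene per 1000000 UMIs of the library's beta cells). After cells were thinned to 2000 UMIs it was found in 100% of control and 99.9% of S961 cells. Thinning left out cells with fewer UMIs than the stated depth, so values at that depth describe the deeper cells. At 2000 UMIs 2747 control and 1470 S961 cells remained, and 99 and 89 were left out. At 5000 UMIs 2350 of 2846 control and 1127 of 1559 S961 cells remained. Ins1 (83926 CPM in control, 87418 in S961) and Ins2 (229662 and 259354) chose the cells and are no finding. Just inside the insulin limit, at 15 to 20% of UMIs, lay 169 control and 52 S961 cells, and just outside it, at 10 to 15%, lay 137 and 46. The mitochondrial limit had 158 control and 29 S961 cells at 15 to 20% and 80 and 15 barcodes at 20 to 25%. Barcodes led by Ftl1-ps1 that met every other limit numbered 185 in control and 202 in S961.

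The beta cells of control, S961 and recovered islets held 22481303, 22259919 and 22383328 UMIs, so the summed depths were nearly equal. Per cell they were not. The median was 7622 UMIs and 2207 genes in control against 13509 UMIs and 3307 genes in S961, with 10288 UMIs in recovered. Of the S961 beta cells, 351 (22.5%) had under 1000 genes, against 184 (6.47%) in control. These 351 cells had a median of 2479 UMIs, 1.69% mitochondrial and 41.3% insulin UMIs, and gave 4.22% of the S961 UMIs. The median mitochondrial share was 6.90% in control and 4.37% in S961, and 159 S961 cells (10.2%) lay under 1% against 27 (0.949%) in control. Control and S961 shared 11 barcode sequences over all barcodes, 2 of them beta cells in both libraries. No doublet caller was run.

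**Figure D1:**
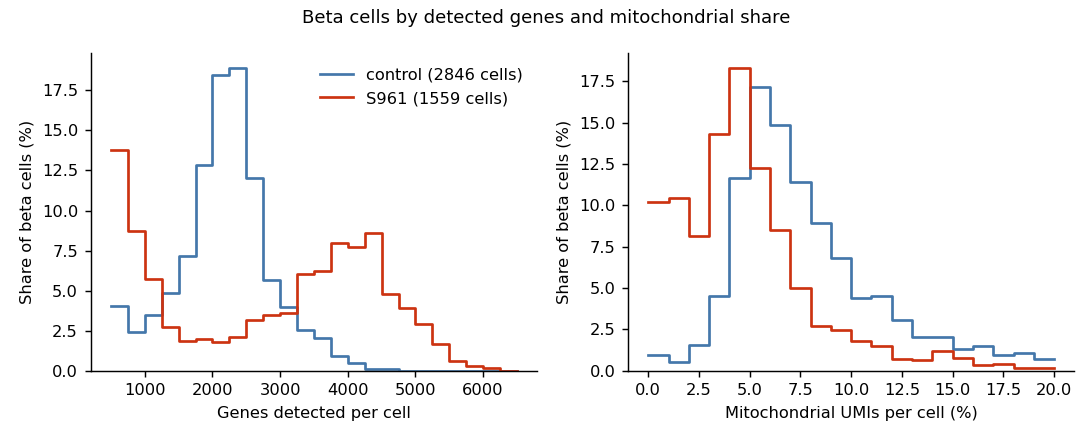
Share of beta cells (percent) by detected genes per cell (left) and by mitochondrial UMIs per cell in percent (right), for the 2846 control and 1559 S961 cells. The S961 cells fall into a deep group and a group under 1000 genes (22.5% of cells), while the control cells centre on 2207 genes and on a higher mitochondrial share.

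RNA of other cell types was measured in the same beta cells. The 14 acinar (digestive enzyme) markers summed to 97.8 CPM in control and 2137 CPM in S961, with Ctrb1 the largest at 27.9 and 629 CPM and Amy2a2 at 0 in control. The 5 B-cell markers summed to 1.47 and 66.5 CPM, the 8 macrophage markers to 41.5 and 80.3, the 8 endothelial markers to 11.0 and 32.9, and the 10 stellate or fibroblast markers to 17.0 and 22.1, with Pdgfra and Lum at 0 in S961. All 7 T-cell or NK-cell markers were at 0 in control and summed to 1.44 CPM in S961. Markers of other types reached 1% of UMIs in 66 S961 cells (4.23%) and 3 control cells. Without those cells the acinar sums were 76.1 and 361 CPM and the B-cell sums 1.47 and 2.52. The 8 alpha markers summed to 887 CPM in control and 1482 in S961. Most of that gap was Ttr, the transthyretin gene (253 and 838 CPM), which beta cells transcribe too. The alpha-cell factor Irx1 was near 0, at 0.222 and 0.0898 CPM.

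Over all genes, 10695 held at least 100 UMIs in both libraries together. Of these, 485 (4.53%) were at least 1.5-fold higher in S961 and 287 (2.68%) at least 1.5-fold lower, with a median log2 ratio of -0.04. At 2-fold the counts were 130 (1.22%) and 47 (0.439%), and at a smaller fold, a log2 ratio of 0.32 or more either way, 1312 (12.3%) and 1445 (13.5%). The split depended on how cells were weighted. With cells thinned to 2000 UMIs, 172 genes were higher and 520 lower and the median log2 ratio of all genes was -0.13. Weighting all cells equally, by averaging their CPM, gave 414 and 855 and a median of -0.14. Over 19 settings of cell choice, depth and scaling, 143 of the 485 and 67 of the 287 were past 1.5-fold in the same direction every time, and 416 and 265 kept their sign.

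**Figure D2:**
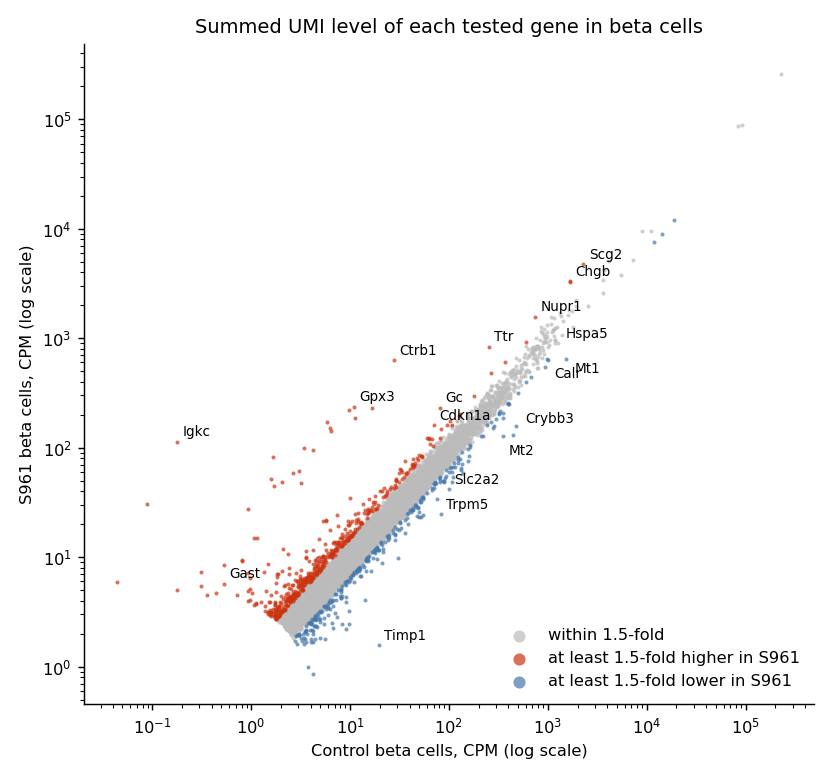
Level of each tested gene with a UMI in both libraries, as CPM of summed UMIs in control (x axis, log scale) and S961 beta cells (y axis, log scale). Red points are at least 1.5-fold higher and blue points at least 1.5-fold lower in S961; Gpx3 at 10.9 against 237 CPM stands far above the diagonal, and so does the acinar gene Ctrb1 at 27.9 against 629.

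Gpx3, which encodes the secreted, selenium-dependent glutathione peroxidase that removes peroxides outside the cell, had the highest ratio of the named genes that did not rest on 1 cell. It was at 10.9 CPM in control (246 UMIs), 237 CPM in S961 (5280 UMIs) and 49.5 CPM in recovered. The S961 level was 21.7-fold that of control, a log2 ratio of 4.44 (4.25 to 4.63). At 2000 UMIs per cell, 33.8% of S961 beta cells (31.4 to 36.3) held a Gpx3 UMI, against 2.37% in control (1.83 to 3.01) and 6.32% in recovered (5.30 to 7.48). Hormone-low islet cells, as called here, had Ins1 plus Ins2 under 5% of UMIs and Gcg, Sst and Ppy each under 1%. At 2000 UMIs they held a Gpx3 UMI in 1.26% of control and 3.03% of S961 cells. Before thinning their median depths were 3617 and 6244 UMIs. Gpx3 was not particular to beta cells. Among all cells with insulin under 5% of UMIs, 39.5% (control), 36.4% (S961) and 35.6% (recovered) held a Gpx3 UMI at 2000 UMIs. These other cells include alpha, delta, PP and non-endocrine cells, in a mixture that differed between the libraries. Hormone-low cells were 168 of 793 in control and 663 of 1511 in S961, and the acinar markers summed to 2694 and 77391 CPM. The Gpx3 level of the other cells was 325 CPM in control and 348 CPM in S961. S961 beta cells thus stood at 68.1% of the level in the other S961 cells. In control, beta cells were far below the other cells. Within S961 beta cells the gene was spread over many cells: at 5000 UMIs 55.5% of them had at least 1 UMI, against 4.77% in control. Of the S961 cells 16.7% had 3 or more UMIs, against 0 of 2350 control cells, where 0 allows at most 0.128%. The ratio held within cells of like depth, at 3.25 for 2000 to 5000 UMIs, 4.75 for 5000 to 10000 and 4.54 for 10000 to 20000. Gpx3 lies at chr11:54902453-54910377 on the plus strand of GRCm38/mm10.

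The other glutathione and thioredoxin genes moved far less. Of 27 measured members 5 were at least 1.5-fold higher and none lower, beside 4.53% and 2.68% of all genes. The median log2 ratio was 0.11 against -0.04 for all genes. Gpx2, the gastrointestinal-type glutathione peroxidase, was at 63.7 CPM in control, 121 in S961 and 94.1 in recovered (0.93, 0.84 to 1.02). Gstp1, a glutathione transferase, was at 32.2, 64.1 and 37.8 CPM (0.99, 0.86 to 1.12). Txnrd1, the cytosolic thioredoxin reductase, was at 126, 194 and 147 CPM (0.62, 0.56 to 0.69), and the catalase gene Cat at 2.45, 4.36 and 2.59 CPM. The intracellular peroxidases Gpx1 (-0.05) and Gpx4 (0.11) differed little between the libraries.

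**Figure D3:**
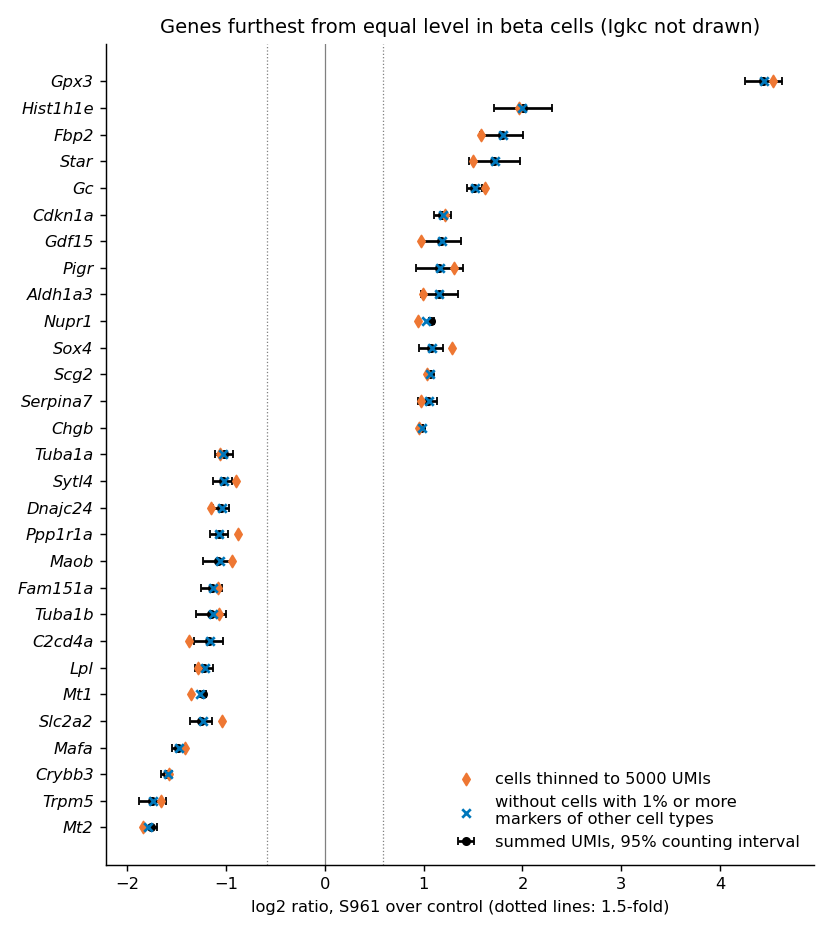
Log2 ratio of S961 over control (x axis) for the named genes with the highest and lowest ratios, other than Igkc. Black points with bars are summed UMIs with 95% counting intervals, diamonds are cells thinned to 5000 UMIs and crosses leave out cells with 1% or more markers of other types; every symbol lies on the same side of 0 as its summed ratio, from Gpx3 at 4.44 to Mt2 at -1.76.

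Some granule protein genes were higher. Granins are acidic proteins that help to pack hormones into dense-core granules. Scg2 (secretogranin II) was at 2287 CPM in control, 4766 in S961 and 2417 in recovered (log2 ratio 1.06, 1.04 to 1.07). Chgb (chromogranin B) was at 1673, 3284 and 1670 CPM (0.97, 0.95 to 0.99). Nearly every cell in each library carried both, so the difference lay in the amount per cell: at 5000 UMIs the median control cell held 11 UMIs of Scg2 and 7 of Chgb, the median S961 cell 22 and 12, and the median recovered cell 10 and 6. The 10th percentile of S961 cells for Scg2 (11 UMIs) equalled the control median.

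Of 22 measured granin, processing and granule-zinc genes, 4 were at least 1.5-fold higher and 2 lower, beside 4.53% and 2.68% of all genes, with a median of 0.16 that lay between 0.01 and 0.24 over the settings. The others of the 4 were Nucb2, which yields nesfatin (266 CPM in control, 482 in S961, 275 in recovered), and Pam, which amidates peptides (374, 605 and 377 CPM). Cpe, the carboxypeptidase that trims hormone precursors, was at 1081, 1576 and 1350 CPM (0.54), and Chga at 4143, 5098 and 5011 CPM (0.30). The proinsulin convertases stayed close to equal, with Pcsk1 at -0.19 and Pcsk2 at 0.02. Slc30a8, the zinc transporter that loads insulin granules, was lower at 265, 171 and 355 CPM (-0.63, -0.69 to -0.57). Sytl4 (granuphilin), which tethers granules at the membrane, was at 111, 54.2 and 119 CPM (-1.03, -1.13 to -0.93). The exocytosis machinery showed no member past 1.5-fold among 19 measured, beside 4.53% of all genes higher and 2.68% lower. Its median was -0.08, with a span from Vamp2 (-0.33) to Cplx2 (0.36).

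Some genes of the mature beta cell were lower, and others lay near equal in summed UMIs. Among 21 measured transcription factors 3 were at least 1.5-fold lower and none higher (median -0.08), beside 2.68% and 4.53% of all genes. Mafa, an activator of insulin transcription that appears late in beta-cell maturation, was at 355 CPM in control, 127 in S961 and 376 in recovered (-1.49, -1.55 to -1.43). At 5000 UMIs 67.2% (control), 36.3% (S961) and 67.2% (recovered) of the beta cells held a Mafa UMI, and 27.7%, 7.72% and 28.6% held 3 or more. Hormone-low cells held one in 7.55% of control and 0.673% of S961 cells at 2000 UMIs. Among all cells with insulin under 5% of UMIs the median insulin share was 2.52% in control and 0.124% in S961. Whether RNA of beta cells gave the Mafa UMIs of the hormone-low cells was not tested. Pdx1, the factor needed to form the pancreas and keep beta cells, was at 111, 71.7 and 109 CPM (-0.64, -0.73 to -0.54), and the clock gene Nr1d1 at 10.3, 6.38 and 11.5 CPM (-0.69). Both fell short of 1.5-fold in some settings: Pdx1 was at -0.55 with cells thinned to 5000 UMIs and -0.42 with barcodes led by Ftl1-ps1 kept, and Nr1d1 at -0.09 among cells of 5000 to 15000 UMIs. The other factors stayed near equal: Neurod1 -0.06, Isl1 -0.12, Nkx2-2 0.06, Nkx6-1 -0.25 and Pax6 -0.29. The highest were Rfx6 (0.41) and Myt1 (0.48).

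Glucose entry and calcium-linked channels showed single large differences. Slc2a2 (GLUT2), the main glucose transporter of mouse beta cells, was at 99.8 CPM in control, 41.9 in S961 and 122 in recovered (-1.25, -1.36 to -1.14). Slc2a1 (GLUT1) was also lower, at 49.6, 26.01 and 26.98 CPM (-0.93, -1.08 to -0.79). Of the 12 genes of that list 2 were lower and 1 higher at 1.5-fold (median -0.12), beside 2.68% and 4.53% of all genes. Among 23 channel and pump genes 1 was lower and 2 were higher (median 0.07), beside the same shares. The lower gene was Trpm5, a calcium-activated cation channel, at 82.5, 24.6 and 77.02 CPM (-1.74, -1.88 to -1.61). At 2000 UMIs a Trpm5 UMI was found in 14.7% (control), 4.35% (S961) and 13.6% (recovered) of the beta cells. The potassium channel gene Kcnh6 was among the higher (0.90), at 5.12 CPM in control and 9.57 in S961, and the KATP channel genes Kcnj11 (-0.20) and Abcc8 (0.00) differed little. Of 16 receptors for hormones and nutrients 1 was higher (Gprc5c, 0.62) and 2 were lower, beside 4.53% and 2.68% of all genes. The lower ones were the incretin receptor Gipr at 28.2, 14.3 and 31.5 CPM (-0.98, -1.18 to -0.78) and the VIP receptor Vipr1 (-0.75). The other incretin receptor, Glp1r, was at 3.69, 4.90 and 4.38 CPM, with an interval of -0.02 to 0.84 for its ratio.

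Small genes known as beta-cell markers were the list with the most members lower at 1.5-fold, though not at the smaller fold. Of 17 measured, 8 were at least 1.5-fold lower and none higher, beside 2.68% and 4.53% of all genes, with a median of -0.47. This list, like the others, was drawn up with earlier results of these data known, so its count and rank are not independent evidence. Crybb3, a crystallin best known from the lens, was at 475 CPM in control, 157 in S961 and 204 in recovered (-1.60, -1.65 to -1.54), and was found at 2000 UMIs in 34.8% (control), 14.97% (S961) and 20.0% (recovered) of the cells. Ppp1r1a, an inhibitor of protein phosphatase 1, was at 132, 62.9 and 159 CPM (-1.07), and the membrane protein gene Fam151a at 108, 48.8 and 119 CPM (-1.14). Both fell short of 1.5-fold in 1 or more settings, at -0.42 and -0.41. Prss53, a serine protease gene, was at 288, 158 and 299 CPM (-0.87, -0.93 to -0.81), and Papss2, which makes the sulfate donor PAPS, at 277, 152 and 252 CPM (-0.86). Another crystallin, Cryba2, was at 14.6, 21.8 and 23.9 CPM (0.58), and Ucn3, the peptide gene of mature beta cells, at 96.2, 85.4 and 136 CPM (-0.17, -0.26 to -0.08). C2cd4a, a gene at a locus linked to diabetes, was at 55.2, 24.5 and 18.2 CPM (-1.17, -1.32 to -1.03), so its recovered level was below that of S961. Lpl, lipoprotein lipase, was at 138, 58.9 and 183 CPM (-1.22, -1.32 to -1.13).

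**Figure D4:**
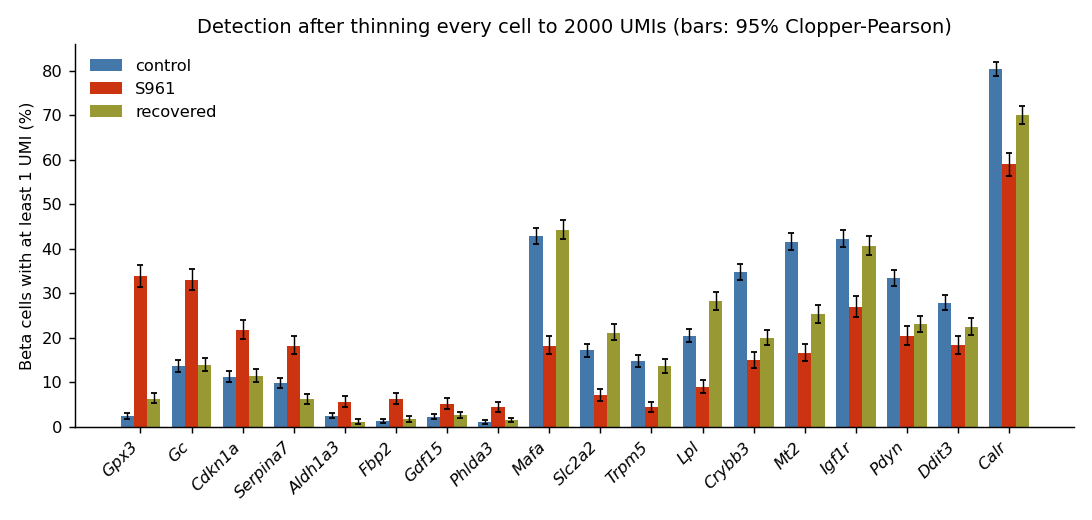
Beta cells with at least 1 UMI of a gene (percent, y axis) after thinning to 2000 UMIs, in the control, S961 and recovered libraries. Cells with fewer UMIs were left out. Bars carry 95% Clopper-Pearson intervals. Gpx3 stands at 2.37, 33.8 and 6.32%, Mafa at 42.8, 18.2 and 44.3% and Mt2 at 41.6, 16.5 and 25.3%.

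Genes linked to an immature or dedifferentiated state, or normally kept silent in beta cells, had 8 of 25 listed members measured. Of the 8, 6 were at least 1.5-fold higher and none lower, beside 4.53% and 2.68% of all genes, with a median of 1.32. The list was drawn up with earlier results of these libraries known, so its direction is not independent evidence. A low member enters only if S961 lifts it over 100 UMIs, so the count leans to higher genes. Gc, the vitamin D carrier, was the most widespread member, at 81.0 CPM in control, 232 in S961 and 85.8 in recovered (1.51, 1.44 to 1.59). At 5000 UMIs 28.1% (control), 60.4% (S961) and 27.0% (recovered) of the beta cells held a Gc UMI. Alpha cells make Gc as well, and its ratio was 1.32 at the lowest over the settings, in cells with under 0.2% markers of other types. That limit kept 473 S961 and 1955 control cells, and its markers include Ttr, which beta cells transcribe too. Serpina7, the thyroxine carrier, was at 59.4, 122 and 45.8 CPM (1.04, 0.94 to 1.14). Aldh1a3, a retinaldehyde dehydrogenase seen in dedifferentiated beta cells, was at 15.4, 34.3 and 6.79 CPM (1.16, 0.97 to 1.34), and at 2000 UMIs in 2.48%, 5.58% and 1.10% of cells. Its ratio was 0.25 among cells of 5000 to 15000 UMIs. The gut peptide genes were rare: Gast (gastrin) gave 12 control, 127 S961 and 37 recovered UMIs (3.42, 2.56 to 4.41), and Cck (cholecystokinin) 140, 392 and 77 (1.5, 1.22 to 1.79). Gast was found in 1.63% of S961 and 0.146% of control cells at 2000 UMIs, and with no UMI in the 159 hormone-low control and 594 hormone-low S961 cells. At this depth 0 UMIs limits the cells with a UMI (to 1.89% and 0.505%) and not the cells that express the gene. Cck was at 0.49 among cells of 5000 to 15000 UMIs. Vim, a filament gene of stromal cells, had 20.9% of its S961 UMIs in 1 cell and turned to -0.23 when cells with 5% insulin were let in. Neurog3, the endocrine progenitor factor, had 26 UMIs in control and 68 in S961, under the 100 UMIs needed to enter the counts.

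Metallothioneins, small cysteine-rich proteins that bind zinc and copper, included Mt2, the lowest of the 15 genes named for low ratios. Mt2 was at 440 CPM in control, 130 in S961 and 229 in recovered (-1.76, -1.82 to -1.70). Mt1 was at 1529, 650 and 832 CPM (-1.23, -1.26 to -1.21). At 5000 UMIs the median control cell held 4 Mt1 UMIs and the median S961 cell 1, and the 90th percentiles were 21 and 8, so both the middle and the top of the distribution were lower. Mt2 was at -2.77, -2.17 and -1.40 within cells of 2000 to 5000, 5000 to 10000 and 10000 to 20000 UMIs. Of 15 metal-handling genes measured 5 were at least 1.5-fold lower and 1 higher (median -0.23), beside 2.68% and 4.53% of all genes. The plasma membrane zinc exporter Slc30a1, which the metal-responsive factor MTF1 also controls, was at 13.7, 8.09 and 12.1 CPM (-0.77, -1.04 to -0.50), and Mtf1 itself at -0.04. Mt3 (-0.16) and the haem oxygenase gene Hmox1 (-0.16) were near equal. Mt1 and Mt2 are near-identical neighbours, and their UMIs may be partly exchanged in counting.

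MTF1 binds the metal response element, searched here as TGCACNC or TGCGCNC on both strands in the 250 bases before each RefSeq start on GRCm38.p6. The promoters of Mt2 and Mt1 are shown because these genes were the 2 members that moved most, with each element in capitals. In this window Mt2 held 3, starting 223, 128 and 50 bases before the start, and Mt1 held 1, at 23 bases. Bases after the listed start were not searched, so these counts do not compare the whole promoters of the genes. At least 1 element is found in 21.4% of 32851 promoters and at least 2 in 5.17%, so a match is a description of these letters and no more.
Mt2 (chr8:94172368-94172617, plus strand): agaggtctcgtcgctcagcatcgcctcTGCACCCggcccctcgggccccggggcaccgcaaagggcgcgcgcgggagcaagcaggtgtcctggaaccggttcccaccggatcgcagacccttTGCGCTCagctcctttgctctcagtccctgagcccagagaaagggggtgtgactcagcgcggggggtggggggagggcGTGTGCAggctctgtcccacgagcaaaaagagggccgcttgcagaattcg
Mt1 (chr8:94178839-94179088, plus strand): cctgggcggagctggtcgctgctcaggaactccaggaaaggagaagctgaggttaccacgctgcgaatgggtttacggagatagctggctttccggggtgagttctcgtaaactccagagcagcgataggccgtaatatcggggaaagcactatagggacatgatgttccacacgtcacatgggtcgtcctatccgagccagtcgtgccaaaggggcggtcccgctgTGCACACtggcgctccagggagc

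ER chaperones and folding enzymes were lower as a group, by small steps. Of 24 measured members 18 were lower and 1 higher by at least 0.32 on the log2 scale, beside 13.5% and 12.3% of all genes. At 1.5-fold 6 were lower and 1 higher, beside 2.68% and 4.53% of all genes. The median was -0.47, against -0.04 for all genes, and lay between -0.73 and -0.42 over 22 alternative settings. Calr (calreticulin), which holds glycoproteins and calcium in the ER, was at 943 CPM in control, 548 in S961 and 769 in recovered (-0.78, -0.81 to -0.75). It was found at 2000 UMIs in 80.4% (control), 59.0% (S961) and 70.0% (recovered) of the cells. Hspa5 (BiP), the main ER chaperone, was at 1283, 900 and 1032 CPM (-0.51, -0.54 to -0.49). Sdf2l1, a BiP cofactor, was at 354, 208 and 237 CPM (-0.77), Hyou1 at 130, 79.0 and 107 CPM (-0.72), and Manf, a secreted ER stress protein, at 791, 529 and 587 CPM (-0.58). Sdf2l1 was at 0.23 among cells of 2000 to 5000 UMIs and at -1.29 and -1.48 in the 2 deeper ranges. The single higher member was Prdx4, the ER peroxiredoxin, at 29.1, 50.4 and 27.5 CPM (0.79, 0.65 to 0.93).

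The full ER stress response element was searched as CCAAT and CCACG with any 9 bases between them on both strands in the same 250-base windows. It stands in 37 of 32851 promoters (0.113%) and in 7 of the 21 list members with a promoter in the RefSeq table: Hspa5, Hsp90b1, Calr, Canx, Pdia6, Dnajc3 and Creld2. The ratios of those 7 ran from Calr (-0.78) and Pdia6 (-0.62) over Hspa5 (-0.51), Canx (-0.43), Hsp90b1 (-0.32) and Creld2 (-0.28) to Dnajc3 at 0.04 (0.003 to 0.08), so genes that hold these letters did not all move alike. Members without a full element, such as Sdf2l1 (-0.77) and Dnajb9 (-0.67), were as low. The windows of Calr, Hspa5 and Hsp90b1 are shown, with the element in capitals, as those of the lowest ratio, the main chaperone and the gene with 2 elements.
Calr (chr8:84846932-84847181, minus strand): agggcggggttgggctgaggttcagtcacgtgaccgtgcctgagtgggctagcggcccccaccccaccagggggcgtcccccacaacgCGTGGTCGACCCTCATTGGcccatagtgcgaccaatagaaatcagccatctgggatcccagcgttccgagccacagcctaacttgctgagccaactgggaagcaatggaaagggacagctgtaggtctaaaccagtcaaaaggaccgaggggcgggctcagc
Hspa5 (chr2:34771840-34772089, plus strand): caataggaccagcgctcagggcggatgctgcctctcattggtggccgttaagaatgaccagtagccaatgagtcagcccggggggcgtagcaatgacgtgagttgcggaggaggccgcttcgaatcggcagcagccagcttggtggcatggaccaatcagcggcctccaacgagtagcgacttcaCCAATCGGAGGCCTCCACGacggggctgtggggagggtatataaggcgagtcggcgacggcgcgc
Hsp90b1 (chr10:86705445-86705694, minus strand): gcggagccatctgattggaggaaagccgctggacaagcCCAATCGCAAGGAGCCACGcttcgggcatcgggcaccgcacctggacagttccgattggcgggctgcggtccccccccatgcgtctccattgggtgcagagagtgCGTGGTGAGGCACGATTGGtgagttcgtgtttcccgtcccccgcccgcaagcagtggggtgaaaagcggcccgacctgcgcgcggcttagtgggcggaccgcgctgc

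The translocation, ER-associated degradation and unfolded protein response genes went the same way. Of 27 measured, 13 were lower and 2 higher by at least 0.32 on the log2 scale, beside 13.5% and 12.3% of all genes. The median was -0.31, between -0.43 and -0.27 over the settings. Ssr1, a subunit of the translocon-associated complex, was at 211 CPM in control, 128 in S961 and 175 in recovered (-0.73, -0.79 to -0.66), and the translocon subunit Sec61g at 404, 250 and 336 CPM (-0.69). Wfs1, the ER protein mutated in Wolfram syndrome, was at 72.0, 46.9 and 73.0 CPM (-0.62), and the response factor Xbp1 at 232, 175 and 225 CPM (-0.41). Ssr4, of the same complex as Ssr1, was higher at 854, 1259 and 811 CPM (0.56, 0.53 to 0.59). The sensors Ern1 (-0.04) and Eif2ak3 (-0.17) lay nearer to equal than Atf6 (-0.36).

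Amino acid response genes under ATF4 did not follow the chaperones. Of 28 measured, 3 were at least 1.5-fold higher and 1 lower, beside 4.53% and 2.68% of all genes, with a median of 0.04. Nupr1, a small stress-induced chromatin protein gene, was at 748 CPM in control, 1578 in S961 and 1061 in recovered (1.08, 1.05 to 1.10). Hormone-low cells in the S961 library held Nupr1 at 12393 CPM. Its ratio in beta cells was 1.02 without the cells holding 1% or more markers of other types and 0.63 among cells of 5000 to 15000 UMIs. Atf4 (-0.05), Asns (0.14) and Trib3 (0.35) stood near equal. Ddit3 (CHOP), a factor of ER-stress death, was at 219, 129 and 157 CPM (-0.76, -0.83 to -0.70), and at 2000 UMIs in 27.9%, 18.3% and 22.5% of cells. Its ratio ran from -1.17 to -0.39 over the settings.

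**Figure D5:**
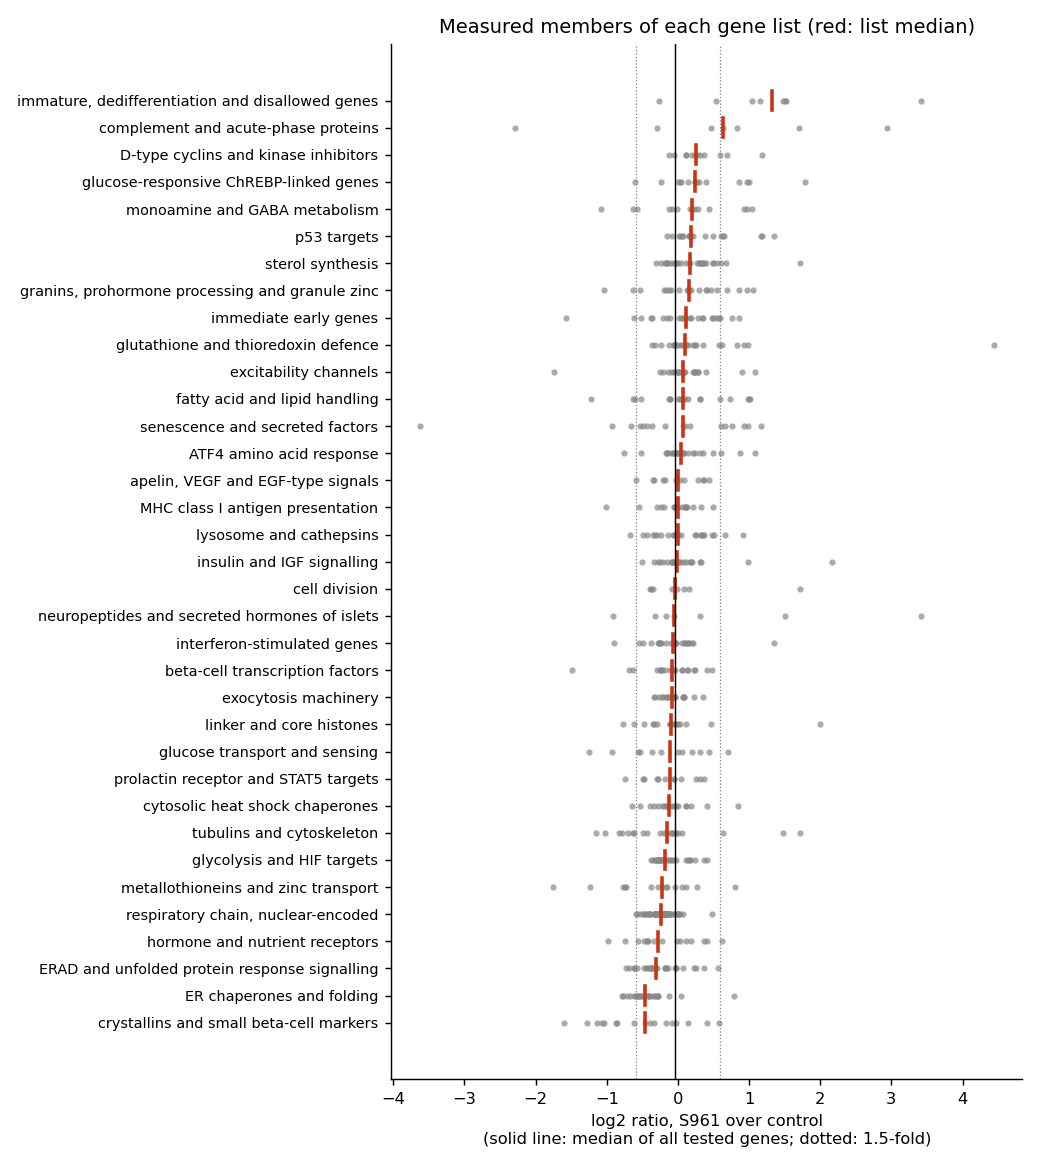
Log2 ratio of S961 over control (x axis) for each measured member (grey points) of 35 gene lists, with the list median in red and the median of all tested genes as the solid line at -0.04. The ER chaperone and crystallin lists have medians of -0.47, and the immature and dedifferentiation list one of 1.32.

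Some p53 targets and cell-cycle inhibitors were higher. Of 20 p53 targets measured 6 were at least 1.5-fold higher and none lower (median 0.18), against 4.53% and 2.68% of all genes. Of 12 measured D-type cyclins, kinases and inhibitors 3 were higher and none lower (median 0.26), beside the same shares of all genes. Cdkn1a, the gene of p21, was at 70.7 CPM in control, 161 in S961 and 73.1 in recovered (1.19, 1.10 to 1.27), and at 2000 UMIs in 11.2% (10.0 to 12.4), 21.8% (19.7 to 24.0) and 11.5% (10.1 to 12.9) of cells. Hormone-low cells held it in 58.5% of control and 47.0% of S961 cells, so the gene is common outside the beta cells too. Phlda3, an inhibitor of AKT, was at 7.56, 19.3 and 5.99 CPM (1.35, 1.09 to 1.61). Gdf15, a stress cytokine, was at 13.4, 30.3 and 13.3 CPM (1.17, 0.97 to 1.37). The Gdf15 ratio was 1.41, 0.47 and 0.90 among cells of 2000 to 5000, 5000 to 10000 and 10000 to 20000 UMIs. Among cells with 1 to 4, 4 to 7 and 7 to 12% mitochondrial UMIs, Gdf15 was at 0.58, 0.73 and 1.66. Cdkn1a was at 0.49, 1.11 and 1.60 in these mitochondrial ranges. Ccng1 (0.60), Trp53inp1 (0.63) and Bbc3 (0.64) were the other members past the fold, Trp53inp1 with 0.05 when cells were thinned to 2000 UMIs. Trp53 itself was at 0.02 and Mdm2 at 0.15. Cdkn1b, the gene of p27, was at 36.8, 59.2 and 48.8 CPM (0.69, 0.56 to 0.81), and cyclin D1 (Ccnd1) at 108, 162 and 114 CPM (0.59). The inhibitors Cdkn2b (0.20), Cdkn2c (0.27) and Cdkn2d (0.12) did not reach the fold. Cdkn1b was at -0.36 among cells of 2000 to 5000 UMIs and at 0.78 and 0.98 among cells of 5000 to 10000 and 10000 to 20000. Cdkn2a, the gene of p16 and ARF, gave 14 control and 15 S961 UMIs (0.11, -1.04 to 1.27), and at such numbers a difference could not be detected. Only 8 of 28 division genes held 100 UMIs, and of these 1 was higher (Stmn1) and none lower, beside 4.53% and 2.68% of all genes. Most of the others were mitotic genes with few UMIs, too few to be counted, and several had more in S961: Mki67 gave 19 control and 54 S961 UMIs (24.1% of the latter in 1 cell), Ube2c 3 and 42, Cenpf 1 and 21, Cdc20 5 and 20 and Top2a 11 and 25. Cdk1 had 13 and 13, and the replication genes Mcm5 and Tk1 had 22 and 8, and 8 and 2.

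Tubulin genes were lower together. The cytoskeleton list had 7 of 23 measured members at least 1.5-fold lower and 3 higher, beside 2.68% and 4.53% of all genes. All 7 lower members were tubulins. All 9 measured tubulin genes had ratios below 0: Tuba1b (51.9 CPM in control, 23.3 in S961, 43.4 in recovered; -1.15, -1.31 to -1.004), Tuba1a (133, 65.7 and 110 CPM; -1.02, -1.11 to -0.93), Tubb5 (87.0, 49.1 and 70.9 CPM; -0.82), Tuba4a (-0.79), Tubb4b (-0.70), Tubb3 (-0.63), Tubb2a (-0.62), Tuba1c (-0.49) and Tubb6 (-0.44). Actin and keratin genes did not share this, with Actb at 0.00 and Krt8 at -0.10. The microtubule-destabilising stathmins went the other way, Stmn1 with 54 and 176 UMIs (1.72, 1.27 to 2.19; 14.2% of the S961 UMIs in 1 cell) and Stmn3 at 38.8, 60.0 and 46.5 CPM (0.63). Tubulin genes are alike in sequence, and UMIs may be partly exchanged among them.

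Genes of fuel metabolism were mixed. Of 60 nuclear-encoded respiratory chain genes 14 were lower and 1 higher by at least 0.32 on the log2 scale, beside 13.5% and 12.3% of all genes (median -0.24, between -0.31 and -0.16 over the settings), while at 1.5-fold 1 was lower (Uqcrb, -0.59), beside 2.68% of all genes. The 28 glycolysis and hypoxia genes had no member past 1.5-fold, beside 4.53% of all genes higher and 2.68% lower. Their median was -0.18, which reached 0.11 in 1 setting. Gapdh was at 1383, 1063 and 1165 CPM (-0.38) and Vegfa at 183, 143 and 180 CPM (-0.35). Among 15 genes linked to the glucose-responsive factor ChREBP 4 were at least 1.5-fold higher and 1 lower (median 0.24). The shares over all genes were 4.53% and 2.68%. Fbp2, the muscle-type fructose bisphosphatase, was at 10.0, 34.6 and 9.11 CPM (1.79, 1.57 to 2.01). At 2000 UMIs 1.27% of control and 6.19% of S961 beta cells held it, and no hormone-low cell of these libraries did. That 0 allows up to 1.89% of hormone-low cells in control and 0.505% in S961. Without thinning the hormone-low cells held Fbp2 at 1.40 CPM in control and 3.05 in S961. Txnip, the thioredoxin inhibitor induced by glucose, was at 33.4, 60.5 and 47.1 CPM (0.86, 0.73 to 0.99). Its direction differed with depth, at -0.95 among cells of 2000 to 5000 UMIs and at 1.11 and 1.74 among cells of 5000 to 10000 and 10000 to 20000, and it was at 0.55 when CPM was averaged over cells. Rgs16, a brake on G-protein signals, was at 6.81, 13.4 and 6.75 CPM (0.98). Acly, which makes cytosolic acetyl-CoA and is itself a glucose-responsive gene, was lower at 981, 649 and 1022 CPM (-0.60, -0.63 to -0.57). Of 21 fatty acid and lipid genes 4 were at least 1.5-fold higher and 3 lower (median 0.07), beside the same shares of all genes. The lower ones were Lpl (-1.22), the desaturase gene Scd2 (-0.63) and Acly. The lipid droplet coat gene Plin2 was at 20.3, 40.1 and 18.8 CPM (0.98, 0.82 to 1.15), Cpt1a, which admits fatty acids to mitochondria, at 15.3, 25.2 and 15.3 CPM (0.73), and the triglyceride-making Dgat2 at 3.11, 6.29 and 2.32 CPM (1.01).

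Sterol synthesis had 10 of 29 measured members higher by at least 0.32 on the log2 scale and none lower, beside 12.3% and 13.5% of all genes, with a median of 0.17. Star, the mitochondrial cholesterol carrier, was the furthest at 7.34 CPM in control, 24.0 in S961 and 13.8 in recovered (1.71, 1.46 to 1.97), but at 0.56 among cells of 5000 to 15000 UMIs. Idi1 (9.79, 14.8 and 13.5 CPM; 0.60, 0.35 to 0.85), Cyp51 (23.8, 34.8 and 32.1 CPM; 0.55, 0.39 to 0.71) and Insig1 (24.6, 34.5 and 36.4 CPM; 0.49) kept recovered levels near those of S961. The list median was -0.01 in 1 setting.

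The genes of insulin signalling, the pathway S961 blocks, differed little. Of 26 measured members 2 were at least 1.5-fold higher and none lower (median -0.02), beside 4.53% and 2.68% of all genes. Insr, the receptor, was at 17.2 CPM in control, 19.4 in S961 and 19.0 in recovered (0.18, -0.02 to 0.38), and the substrate Irs2 at 30.7, 33.2 and 29.8 CPM (0.11, -0.04 to 0.27). Igf1r, the related IGF receptor, was lower at 366, 259 and 318 CPM (-0.50, -0.55 to -0.45), and at 2000 UMIs in 42.2%, 26.9% and 40.7% of cells. Foxo1, the factor held in the cytoplasm by insulin signals, was at -0.16. The 2 higher members, Igfbp5 and Igfbp3, bind IGFs and rested on few cells. A single cell gave 33.9% of the Igfbp5 UMIs in S961 and another 33.3% of the Igfbp3 UMIs in control, and both genes turned negative, at -0.32 and -0.97, when cells with 5% insulin were let in.

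Secreted and immune genes were mixed. The opioid precursor Pdyn was at 351 CPM in control, 186 in S961 and 226 in recovered (-0.91, -0.97 to -0.86). Among 17 measured senescence-linked and secreted factors 6 were at least 1.5-fold higher and 3 lower, beside 4.53% and 2.68% of all genes. Their median of 0.07 changed sign between settings. Timp2, a metalloproteinase inhibitor, was at 11.5, 22.01 and 15.8 CPM (0.93, 0.71 to 1.16), Bambi, a decoy of the TGF-beta receptors, at 29.3, 49.6 and 35.5 CPM (0.76), and the lysosomal galactosidase Glb1 at 16.7, 26.4 and 21.4 CPM (0.66, 0.47 to 0.85). Spp1 (osteopontin) was lower at 1011, 637 and 422 CPM (-0.67, -0.70 to -0.64), and the chemokine Cxcl16 at 8.05, 4.22 and 4.42 CPM (-0.93). Timp1, at 19.4 and 1.57 CPM, had 20.8% of its control UMIs in 1 cell and a ratio of 0.08 among cells with at least 25% insulin. B2m, the shared subunit of MHC class I, was at 47.6, 23.5 and 42.8 CPM (-1.02, -1.17 to -0.86), while the heavy chains H2-K1 (-0.29) and H2-D1 (-0.05) were closer to equal. None of the 17 MHC class I genes was 1.5-fold higher, beside 4.53% of all genes. Hormone-low cells held B2m in 76.1% of control and 64.5% of S961 cells, against 8.23% and 3.54% of beta cells at 2000 UMIs. Clu (clusterin), of the complement list, was at 67.7, 121 and 67.6 CPM (0.84, 0.75 to 0.93).

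Some high ratios belonged to few cells or to other cell types. Igkc, an antibody light chain gene of B cells and plasma cells, was at 0.178 CPM in control and 113 in S961, with 98.9% of the S961 UMIs in a single cell. Fgb, a fibrinogen chain gene, had 93.8% of its S961 UMIs in 1 cell and Lcn2 (lipocalin 2) 41.5%. Of the remaining named genes with the highest ratios, Hist1h1e, a linker histone, was at 5.38, 21.6 and 9.74 CPM (2.00, 1.71 to 2.30), the transcription factor Sox4 at 36.0, 75.9 and 46.1 CPM (1.08, 0.95 to 1.20) and Pigr, which carries IgA across epithelia, at 9.65, 21.6 and 12.9 CPM (1.16, 0.93 to 1.40). Among cells of 2000 to 5000 UMIs Sox4 was at -0.17 and Pigr at -0.94, against 1.79 and 1.00 among cells of 5000 to 10000 and 1.65 and 1.24 among cells of 10000 to 20000. Among 18 histone genes measured, 1 was higher and 2 lower at 1.5-fold, beside 4.53% and 2.68% of all genes. Remaining genes with the lowest ratios were Dnajc24, a cochaperone for diphthamide synthesis (157, 75.7 and 118 CPM; -1.05), and Maob, the monoamine oxidase B gene (49.4, 23.4 and 53.6 CPM; -1.08). Reg2, Sycn, Ctrl and Pnliprp1, all genes of acinar cells, and Apoe and Fabp4 had log2 ratios from 1.89 to 8.43 but lay under 10% of their level in the other S961 cells. They were passed over as possible background, and so was Id3 among the lower genes. Further named genes fell short of 1.5-fold in at least 1 setting, where Slc30a8 was at -0.23, Slc2a1 at -0.55, Vipr1 at -0.52, Kcnh6 at 0.57, Gprc5c at 0.00, Prdx4 at 0.55, Sec61g at -0.58, Acly at -0.29, Uqcrb at -0.44, Scd2 at -0.25, Cdkn1b at 0.49, Cxcl16 at -0.53 and Glb1 at 0.38. Kcnh6 was at -0.82 among cells of 2000 to 5000 UMIs. The part of RNA from other cells in the remaining results was not tested beyond the settings given.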

How the data were processed

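Raw UMI counts of 31053 genes were deposited by the authors as a pooled matrix made with Cell Ranger (version not given in the sources used here) on mm10, per the submitters' processing notes. Barcodes were put to libraries by their suffix (1 control, 2 S961, 3 recovered), and 0 values were not whole. Counts were summed over the beta cells of each library and divided by all their UMIs. The ratio of S961 over control carries the exact binomial 95% interval of the split of a gene's UMIs, and shares carry Clopper-Pearson intervals. PCR duplicates are removed by UMIs, but cells of 1 library are no replicates, so intervals cover counting error only.

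The cells and the 35 gene lists (848 genes) were chosen with earlier results of these data known. Named were 15 genes at each end of the ratios, by whichever end of the interval is closer to 0, with at least 100 UMIs and 20 CPM; passed over were mitochondrial, ribosomal and unnamed genes, cell-type markers and genes under 10% of their level in the other cells. Up to 4 members past the fold were named for each list, with a set of key genes. Other list members and marker genes in the text were added after their values were seen. Alternatives varied cell limits, depth, scaling, minimum counts and fold. The ratio and its interval were tested on simulated data. Promoters are RefSeq's (GRCm38.p6), without bases after the start, and gene positions GENCODE's. Python 3.11.15, numpy 2.4.6, scipy 1.17.1, pandas 2.3.3 and matplotlib 3.10.9 were used. Results for some genes are not reported here.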

Additional observations from a re-analysis of the deposited data

How the results depend on the processing

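Over 24 alternatives to the counts of 485 higher and 287 lower genes, 16 gave 324 to 563 higher and 16 gave 226 to 332 lower. The others were 172 and 520 with cells thinned to 2000 UMIs and 907 and 450 among cells of 5000 to 15000 UMIs. A minimum of 20 UMIs gave 1197 and 517, a minimum of 500 gave 165 and 151, and a minimum of 1 gave 4050 and 2020. The counts were 1312 and 1445 at a log2 ratio of 0.32 and 130 and 47 at 2-fold. Averaging CPM over cells gave 855 lower, and with cells of at least 1500 genes thinned to 2000 UMIs 251 were higher. The cause was not tested beyond what each setting changes (genes, cells or fold).

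Of the 30 genes with the highest and lowest ratios 26 stayed past 1.5-fold in every setting of cells and scaling. The 26 include Igkc, with 98.9% of its S961 UMIs in 1 cell, so this count does not set apart genes that rest on 1 cell. Of 35 list medians 14 kept their sign in all 22 alternatives; the fold does not enter a median and was not varied there. The following changed sign, and the cause was not tested. Hspa1b was at 0.20 with cells thinned to 5000 UMIs, 0.82 among cells of 5000 to 15000 UMIs, 0.10 with at least 1500 genes and 0.55 with those cells thinned to 2000. Pdgfb was at 0.028 and 0.10 in the 2 settings thinned to 2000. Fgb was at -0.87 among cells of 5000 to 15000 UMIs, -2.69 with 4 to 7% mitochondrial UMIs and -2.26 without the 5% deepest cells. Timp1 was at 0.080 with at least 25% insulin and 0.43 with under 0.2% markers of other types, where Gprc5c was at -9.05e-05. With at least 5% insulin, Igfbp5 was at -0.32, Igfbp3 at -0.97, Ifitm3 at -0.74 and Vim at -0.23. Nnat was at 0.28 with barcodes led by Ftl1-ps1 kept.

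Settings without cells under 1% mitochondrial UMIs, without cells of 1% or more markers of other types, and with 1500 genes and thinning together were chosen after seeing the data. No paired analysis was possible because each group has 1 library. Depth limits rare genes such as Cdkn2a.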

Other observations

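Further gene groups in the beta cells were mixed. The counts stand beside 4.53% of all genes higher and 2.68% lower at 1.5-fold. Of 25 immediate early genes 3 were at least 1.5-fold higher and 2 lower, with a median log2 ratio of 0.12: Fosb (0.85), Jun (0.75) and Maff (0.59) against Npas4 (-1.57) and Per1 (-0.62). Jun was at -2.27 among cells of 2000 to 5000 UMIs and at 1.21 and 1.45 among cells of 5000 to 10000 and 10000 to 20000, so its direction differed with depth. Fosb (-0.38) and Th (-0.18) also lay below 0 in the shallowest of these ranges. In at least 1 setting Jun was at 0.39, Fosb at 0.55, Per1 at -0.04, Th at 0.34, Slc18a1 at -0.22, Ctsb at -0.51 and Bcl6 at -0.09, short of 1.5-fold. Among 15 monoamine and GABA genes Th, tyrosine hydroxylase, was at 1.05 and the vesicular transporter Slc18a1 at -0.63. Of 24 lysosome genes 2 were higher and 1 lower, with cathepsin F (Ctsf) at 0.91 and cathepsin B (Ctsb) at -0.67. Of 12 prolactin receptor and STAT5 target genes 1 was lower, Bcl6 (-0.75).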
